A study of Sus scrofa with 6 samples.

Results

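MiR-21 and the miR-29 family are the miRNAs best known for their link to the extracellular matrix, the collagen-rich scaffold around muscle fibres. They were taken from the table of the series as every row whose first name was miR-29a, miR-29b, miR-29c or miR-21 (ssc-miR-21-5p, ssc-miR-29a-3p, ssc-miR-29b-1-3p and so on), with all arms. This gave 8 of the 1143 listed miRNA rows, 6 of miR-29 and 2 of miR-21. The samples were longissimus dorsi muscle, the long muscle of the back, of 3 Large White (LW, a lean breed) and 3 Meishan (MS, an obese breed) pigs, and their small RNA was sequenced. According to the methods of the study these were untreated female fetuses of 35 days post-conception (dpc), each from a different sow mated to a boar of her own breed, whereas the sample labels describe adult females of 2 years. The stage of the methods is used here. Each library was thus 1 animal, and the comparison asked how the miRNAs of primary myofibers differed between the breeds.

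A miRNA gene is transcribed as a hairpin, whose 5p and 3p arms each yield a mature strand of about the same length. One strand is usually kept and the other degraded, and bases 2 to 8 of the kept strand, the seed, pair with target mRNAs. In other mammals miR-29 represses collagens, elastin and further matrix genes, and it is known to rise as myoblasts differentiate. MiR-21-5p is among the most abundant miRNAs of many tissues and promotes fibroblast survival and fibrosis in mouse models, while miR-21-3p is its much scarcer partner.

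The listed mature sequences are shown first because they decide which genes a row can stand for. They are written 5′ to 3′ with DNA letters as in the table, with the seed in capitals.
miR-21-5p: tAGCTTATcagactgatgttgac
miR-21-3p: cAACAGCAgtcgatgggctgt
miR-29a-3p and miR-29c-3p: tAGCACCAtttgaaatcggtta
miR-29b-1-3p and miR-29b-2-3p: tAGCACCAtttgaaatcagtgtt
miR-29a-5p: aCTGATTTcttttggtgttcaga
miR-29b-1-5p: tGGTTTCAtatggtggtttag
miR-29b-2-5p: cTGGTTTCacatggtggcttaga
miR-29c-5p: tGACCGATttctcctggtgttct

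The 3p strands of miR-29 shared the seed AGCACCA and their first 17 bases. From there miR-29b-3p differed from miR-29c-3p by G18A, T21G and A22T, with positions counted from the 5′ end and the base of miR-29c-3p first. The authors listed the 3p strands of 4 hairpins in 2 rows, and only the 5p strands had a row for each hairpin. The row named for miR-29a-3p and miR-29c-3p is called miR-29a/c-3p below. Its sequence matched the hairpin of miR-29c exactly, whereas the hairpin listed for miR-29a has another base in that stretch (C10T, hairpin base first), in capitals here.
miR-29a-3p stretch of its hairpin: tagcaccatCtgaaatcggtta
The row therefore carried the letters of miR-29c-3p, which the hairpin listed for miR-29a does not contain. Whether any of its reads came from the miR-29a gene was not tested. The listed miR-29c-5p also differed from its hairpin in its last base (A23T).

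The hairpins lie at 3 places of the pig genome in the positions of the study, all on the plus strand of Sscrofa10.2. MiR-29b-1 (chr18:19034818-19034902) and miR-29a (chr18:19035224-19035311) are neighbours with 321 bases between them. MiR-29b-2 (chr9:148552438-148552521) and miR-29c (chr9:148552989-148553094) form the other pair, with 467 bases between them. MiR-21 lies alone at chr12:37340385-37340476. In the RefSeq annotation of Sscrofa11.1, used here for names and order only, the genes of both miR-29 pairs lie between genes and overlap none, the first pair beside KLF14 and the other beside CD46. MIR21 stands between PTRH2 and TUBD1 there. The hairpin of miR-21 is given with its listed strands in capitals, to show how both come from 1 stem.
ssc-mir-21: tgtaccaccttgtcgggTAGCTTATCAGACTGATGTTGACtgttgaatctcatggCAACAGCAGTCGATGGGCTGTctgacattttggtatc

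Another 2 rows had one of these seeds. PN-70-5p is typed as conserved in the deposited table and matches mir-590 of other mammals. It has the seed of miR-21-5p but only 8 of its 22 bases in common with it. PC-4-3p, typed as candidate there, is miR-29c-3p with 2 further bases at its 3′ end. The methods of the study give these prefixes the other way round, PC for conserved and PN for candidate, and the types of the table are used here.
PN-70-5p: gAGCTTATtcataaaagtacag
PC-4-3p: tAGCACCAtttgaaatcggttata

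Each value is the authors' read number for the commonest sequence of a miRNA, scaled within its library by the mappable reads, and is called normalized reads. One read counted as 0.720 (MS replicate 1) to 1.69 normalized reads (MS replicate 3). The recovered reads of all listed miRNAs ranged from 1038988 in MS replicate 3, the shallowest library, to 3419280 in LW replicate 2. Breeds were compared with limma on log2(normalized reads + 1), a scale on which changes of scarce miRNAs come out too small, over the 548 miRNAs whose breed mean reached 10 in LW, in MS or in both. The word called stands for an adjusted p below 0.05, and positive log2 fold changes mean higher in MS. The muscle-enriched miRNAs (12 rows, such as miR-1, miR-133 and miR-206) summed to 20124 to 25074 normalized reads in LW and 66565 to 97598 in MS. Marker miRNAs of other cells were present too. They summed in LW and in MS to 3510 to 4571 and 6107 to 10782 for red cells (6 rows), 111 to 135 and 807 to 1364 for leukocytes (3), 14065 to 22527 and 23294 to 45565 for smooth muscle (4), 5134 to 8860 and 10500 to 13989 for endothelium (2), 54414 to 71203 and 4540 to 10576 for cartilage (2), 122 to 244 and 406 to 1210 for epithelium (2), 333 to 1296 and 1549 to 3954 for nerve (2) and 183 to 2864 and 47.5 to 89.1 for liver (2). None of these rows was at 0 in all libraries of a breed. None of these sums overlapped between the breeds. Those of cartilage and liver were lower in MS and the others higher, but not every row followed its sum. The smooth muscle sum was higher through miR-143-3p alone, and the other 3 rows, of miR-143-5p and both strands of miR-145, were called lower. For endothelium miR-126-5p was called higher, and miR-126-3p was not called and lay lower in every MS library than in any LW library. The cartilage sum was lower through miR-140-3p (log2 fold change -3.34). MiR-140-5p overlapped between the breeds and was not called (-0.12, adjusted p = 0.75 from limma). The same held for miR-486-5p of red cells, miR-150-5p of leukocytes and miR-9-3p of nerve, which overlapped and were not called. The nerve rows are the strands of miR-9 only. MiR-124a-3p, also a nerve miRNA, is not in that sum, and it overlapped and was not called (0.84, adjusted p = 0.14 from limma). The part of these marker miRNAs in the results below was not tested. In whole muscle, fewer cells of a type and less of a miRNA per cell cannot be told apart.

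Of the 8 rows 4 reached the minimum for the test, and these were miR-21-5p, miR-21-3p, miR-29a/c-3p and miR-29b-3p. Of these 4, miR-21-3p and both miR-29 3p strands were called higher in MS and none was called lower. MiR-29b-3p reached the minimum only in MS (mean 34.2, against 2.85 in LW), so the test could not have shown it as lower. Over all miRNAs tested 62.2% were called, 34.1% higher and 28.1% lower. The same 3 strands did not overlap between the breeds, as for 36.7% of all tested miRNAs that lay higher in MS and 31.0% that lay lower. MiR-21-5p, by far the most abundant of the 8, was not called. The other 4 rows, all 5p strands of miR-29, had at most 13 reads in any library. Among them miR-29b-2-5p averaged 8.01 normalized reads in LW and 1.37 in MS, so the minimum left out a row whose mean was lower in MS. Its libraries overlapped between the breeds.

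MiR-21-5p, the abundant strand of its hairpin, stood at 48208, 42827 and 51287 normalized reads in LW replicates 1, 2 and 3 and at 52765, 48449 and 37875 in those of MS. The breeds overlapped, and the highest and the lowest library were both MS. LW averaged 47441 ± 4282 and MS 46363 ± 7661 (SD over 3 animals), a log2 fold change of -0.04 (standard error 0.22, 95% confidence interval -0.52 to 0.43, adjusted p = 0.88 from limma). The interval leaves room for a change of that size in either direction, so equal levels were not shown. Among all rows miR-21-5p ranked 16, 17 and 16 in the LW libraries and 11, 8 and 11 in the MS libraries. Its seed mate PN-70-5p had 6.26, 8.95 and 7.31 normalized reads in the LW libraries against 50.4, 28.5 and 44.0 in MS, so that every MS library lay above every LW library. It was called higher (limma, adjusted p = 0.00053) at 2.28 ± 0.42 on the log2 scale (standard error). PN-70-5p too reached the minimum for the test only in MS (mean 40.9, against 7.51 in LW). PN-70-5p hardly added to the sum of strands with this seed, which was 42836 to 51295 normalized reads in LW and 37919 to 52815 in MS.

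MiR-21-3p, the other strand of the same hairpin, was at 40.1, 26.0 and 42.9 normalized reads in LW and at 525, 402 and 151 in MS. All 3 MS libraries lay above all LW libraries, and MS replicate 3 lay far below the other 2. LW averaged 36.4 ± 9.05 and MS 359 ± 191 (SD over 3 animals), a ratio of 9.88. The log2 fold change was 3.12 (standard error 0.45, adjusted p = 0.00010 from limma), which ranked 45 among the rises of the 548 miRNAs. In whole reads this was 32, 32 and 47 in LW and 729, 438 and 89 in MS.

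**Figure D1:**
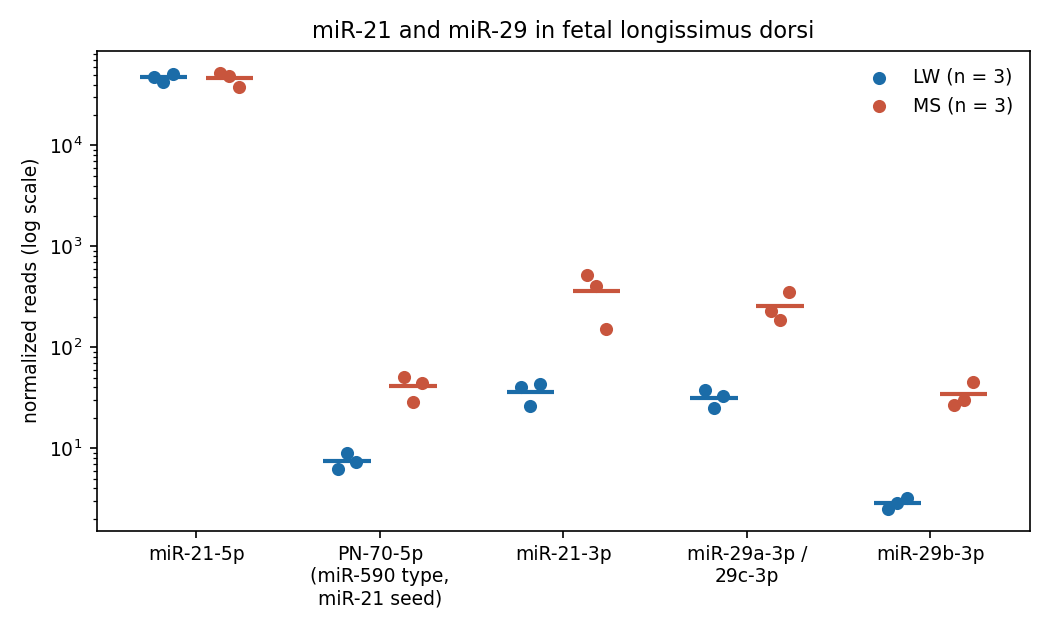
Normalized reads (log axis) of the 4 tested strands of miR-21 and miR-29 and of PN-70-5p, which has the seed of miR-21-5p. Points are single libraries, lines are means of 3 animals, and only miR-21-5p overlaps between LW and MS.

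Since both strands of miR-21 were read in the same library, their ratio does not depend on how libraries were scaled. MiR-21-3p made up 0.0831%, 0.0607% and 0.0836% of the miR-21 reads in LW libraries, compared with 0.984%, 0.823% and 0.396% in MS. The breeds were apart, by 9.69 times on the means (exact permutation test, two-sided, p = 0.10, the smallest p that 3 animals against 3 allow, and adjusted p = 0.10 over 4 values tested in this way). The log2 ratio of 3p over 5p rose from -10.34 in LW to -7.17 in MS, a difference of 3.16 (standard error 0.41, adjusted p = 0.00032 from limma, fitted over the 192 hairpins with both strands above the minimum). Changed arm ratios were common in this comparison, with 64.6% of hairpins called and 35.4% called towards the 3p strand. The shift of miR-21 ranked 19 among the 192, between miR-99a (6.28), with the largest shift towards 3p, and miR-1307 (-7.02), with the largest towards 5p. After the GC correction described below the difference for miR-21 was 5.07 (adjusted p = 6.3e-05 from limma). MiR-21-5p remained the dominant strand in all 6 libraries.

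**Figure D2:**
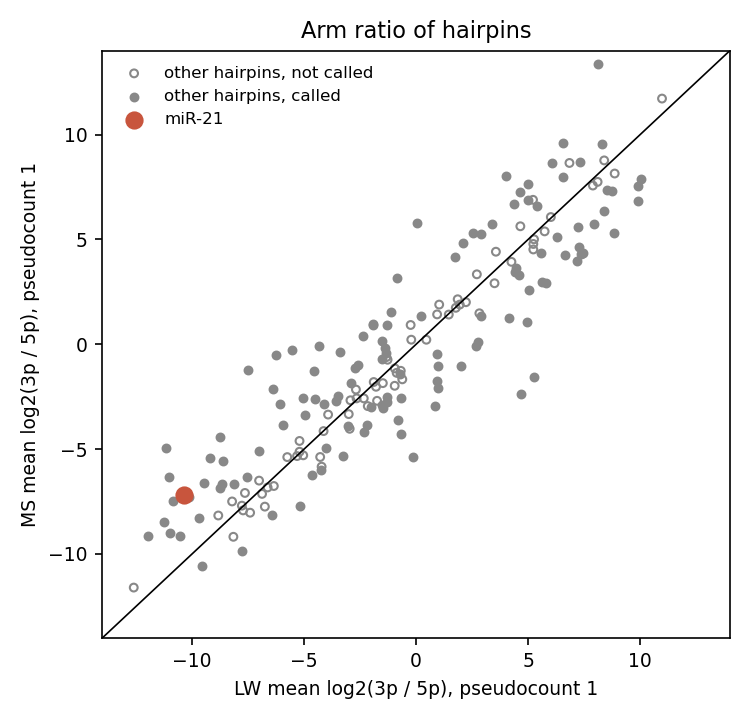
Mean log2 ratio of the 3p over the 5p strand in LW (horizontal) and MS (vertical) for 192 hairpins, with a pseudocount of 1. MiR-21, at -10.34 in LW and -7.17 in MS, lies above the line of equal ratios, and filled points are hairpins called at an adjusted p under 0.05.

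The miR-29 strands that repress matrix genes in other mammals were scarce in LW and about an order of magnitude higher in MS. MiR-29a/c-3p was at 37.6, 24.8 and 32.9 normalized reads in LW and at 227, 185 and 354 in MS. The breeds did not overlap, and the lowest MS library was several times above the highest LW library. LW averaged 31.8 ± 6.46 and MS 255 ± 87.9 (SD over 3 animals), a ratio of 8.03. On the log2 scale MS was higher by 2.93 ± 0.36 (standard error; limma, adjusted p = 3.1e-05). This row ranked 349 to 389 of the 1143 in LW and 215 to 254 in MS.

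MiR-29b-3p, from the other member of each hairpin pair, had 2.51, 2.85 and 3.20 normalized reads in the LW libraries against 26.6, 30.3 and 45.7 in MS. Again no LW library reached any MS library. LW averaged 2.85 ± 0.346 and MS 34.2 ± 10.1 (SD over 3 animals), a ratio of 12.0. The log2 difference was 3.16 ± 0.44 (standard error; limma, adjusted p = 8.1e-05). In LW the value rested on 2, 3.5 and 3.5 reads, against 37, 33 and 27 in MS, so that its size depended on the pseudocount, from 1.76 with 10 to 3.34 with 0.5. The 0.5 reads occur where the authors' values were not whole multiples of 1 read, as was also the case for miR-29a/c-3p with 30.5 reads in LW replicate 2 and 315.5 in MS replicate 1.

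MS replicate 3 was the highest library for both 3p strands of miR-29, whereas among the MS libraries it was the lowest for miR-21-3p and for miR-21-5p. The order of the other libraries within a breed differed between the miR-29 strands. Without MS replicate 3 the log2 fold changes were 2.67 for miR-29a/c-3p, 2.94 for miR-29b-3p and 3.66 for miR-21-3p, and the 3 were still called. The ratio of miR-29b-3p over miR-29a/c-3p was 0.0667, 0.115 and 0.0972 in LW and 0.117, 0.164 and 0.129 in MS, and the breeds did not overlap (exact permutation test, two-sided, p = 0.10, the smallest possible, and adjusted p = 0.10). The lowest MS ratio and the highest LW ratio were close, and the LW ratios rest on the few miR-29b-3p reads given above.

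All miR-29 rows together held 0.00182%, 0.00164% and 0.00183% of the listed normalized reads in LW and 0.0110%, 0.0112% and 0.0230% in MS (8.55 times on the means). The share of miR-21 was 1.90%, 1.54% and 1.76% in LW and 2.26%, 2.45% and 2.16% in MS (1.32 times on the means). Neither share overlapped between the breeds (two-sided exact permutation tests, p = 0.10 each, adjusted p = 0.10). MiR-21 thus held a larger share in MS at a level of miR-21-5p that was not called, because the listed reads of MS libraries summed to less, at 1757880 to 2362080 normalized reads against 2541220 to 2914030 in LW. In every library miR-21 was the far larger of both families.

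The 5p strands of miR-29 are the discarded side of the hairpin and were at the limit of detection, but they are the strands that name a gene. MiR-29c-5p was found in every library, with 3, 9 and 6 reads in LW and 5, 10 and 1 in MS, and the breeds overlapped. MiR-29b-2-5p, from the neighbouring hairpin, had 2, 13 and 12 reads in LW and 1, 0 and 2 in MS. LW replicate 1 and MS replicate 3 had the same number of reads of it, and the normalized values overlapped as well, at 2.51 to 11.0 in LW and 0 to 3.38 in MS. Pooled over libraries it had 27 reads in LW and 3 in MS, a ratio of 0.113 (exact 95% interval 0.0219 to 0.367, which covers counting error only). In a limma fit with no minimum it was called lower, with a log2 fold change of -2.003 (adjusted p = 0.034, and -0.64 with a pseudocount of 10), where 36.3% of the 1143 miRNAs were called and 17.2% were called lower. That call ended when any 1 of the 6 libraries was left out (adjusted p = 0.059 to 0.26, limma) and after scaling to equal sums (adjusted p = 0.099). The ratio for miR-29c-5p was 0.904 (0.431 to 1.88).

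The strands from the chromosome 18 pair were nearly missing. MiR-29b-1-5p had 1 read in LW replicate 3 and 1 in MS replicate 1, and miR-29a-5p had 2 reads, both in MS replicate 1. The 5p strands of the chromosome 9 pair together had 5, 22 and 18 reads in LW and 6, 10 and 3 in MS, against 1 read in LW and 3 in MS for the chromosome 18 pair. A 5p strand is not a measure of how much its gene is transcribed, and differences between the pairs in how strands are kept were not tested. PC-4-3p, the longer form of miR-29c-3p, was listed at 0.5 reads in MS replicates 1 and 3 and at 0 elsewhere.

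**Figure D3:**
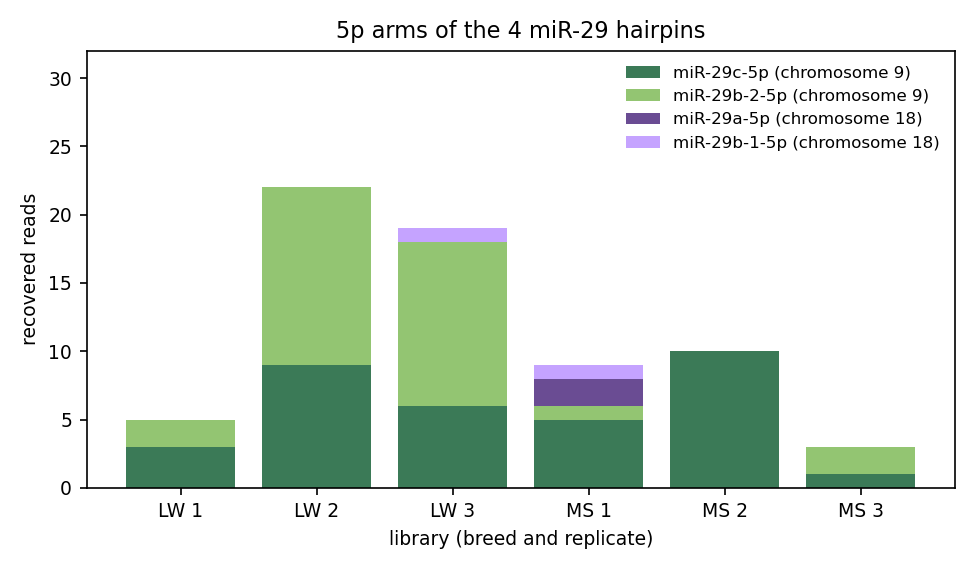
Recovered reads of the 5p strands of the 4 miR-29 hairpins in each library, stacked by strand and coloured by hairpin. The chromosome 9 pair gave 45 of 46 such reads in LW and 19 of 22 in MS.

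Where the arm ratio was fitted for hairpins with at least 1 strand above the minimum, the log2 ratio of 3p over 5p was higher in MS by 2.50 for miR-29a, 3.27 for miR-29c, 3.21 for miR-29b-1 and 5.16 for miR-29b-2 (adjusted p = 0.0040, 0.0044, 0.00077 and 0.00021 from limma). Of the 278 hairpins in this fit 30.2% were called towards 3p. MiR-29b-1 and miR-29b-2 entered this fit only through miR-29b-3p, which reached the minimum in MS alone (mean 34.2, against 2.85 in LW). The minimum thus favoured a shift towards 3p in MS for them, and their adjusted p does not count as support for it. The 3p value used for miR-29a is that of miR-29a/c-3p, whose sequence its listed hairpin does not contain. These 4 values share 2 rows of 3p strands, so they are not independent. The 5p values of miR-29a and miR-29b-1 are mostly the pseudocount. Means of the 5p strand in LW and MS were 5.52 and 4.82 normalized reads for miR-29c. For miR-29b-2 they were 8.01 and 1.37, so its lower 5p value in MS is part of the 5.16.

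The base composition of the strands moved with the breed difference. Of the 548 miRNAs, the 120 with a GC content up to 40% had a median log2 fold change of 1.98 and 71.7% were called higher, whereas the 127 with over 50% to 60% had a median of -0.56 and 15.7% were called higher. MiR-29a/c-3p (36.4% GC), miR-29b-3p (34.8%), PN-70-5p (31.8%) and miR-21-5p (39.1%) belong to the first class, and miR-21-3p (57.1%) to the other. Against the median of its own class miR-21-3p therefore stood out more, and miR-21-5p was below its class. After a correction of each library for GC content, miR-29a/c-3p (log2 fold change 1.31, adjusted p = 0.011 from limma) and miR-29b-3p (1.34, adjusted p = 0.023) were still called higher, at less than the uncorrected size. MiR-21-3p was at 3.78 (adjusted p = 0.00013). MiR-21-5p was then called lower, by -1.28 (adjusted p = 0.00045), and PN-70-5p was at 0.08 and no longer called (adjusted p = 0.87). Whether the trend with GC content arose in the libraries or in the muscle was not tested.

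**Figure D4:**
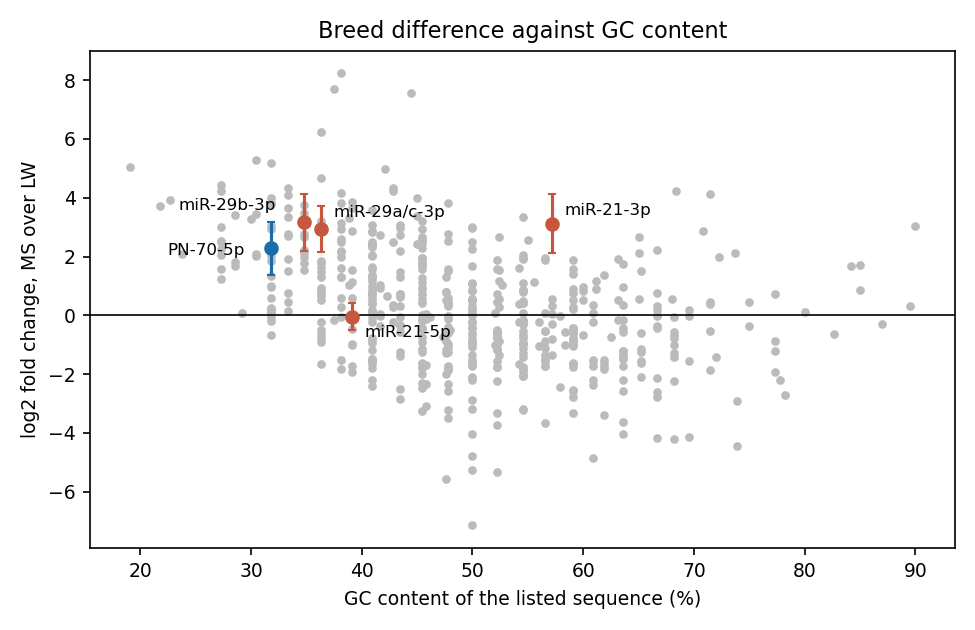
Log2 fold change of MS over LW against the GC content of the listed sequence for the 548 tested miRNAs (grey). The 4 strands of miR-21 and miR-29 (red) and PN-70-5p (blue) carry 95% confidence intervals, and miR-21-3p, at 57.1% GC and 3.12, lies apart from the AT-rich strands.

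Scaling all libraries to equal sums, which raised the median of all miRNAs from 0.11 to 0.54, gave 3.55 for miR-21-3p, 3.36 for miR-29a/c-3p and 3.54 for miR-29b-3p, all called. MiR-21-5p went to 0.40 (adjusted p = 0.051 from limma), so its direction depended on the scaling.

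**Figure D5:**
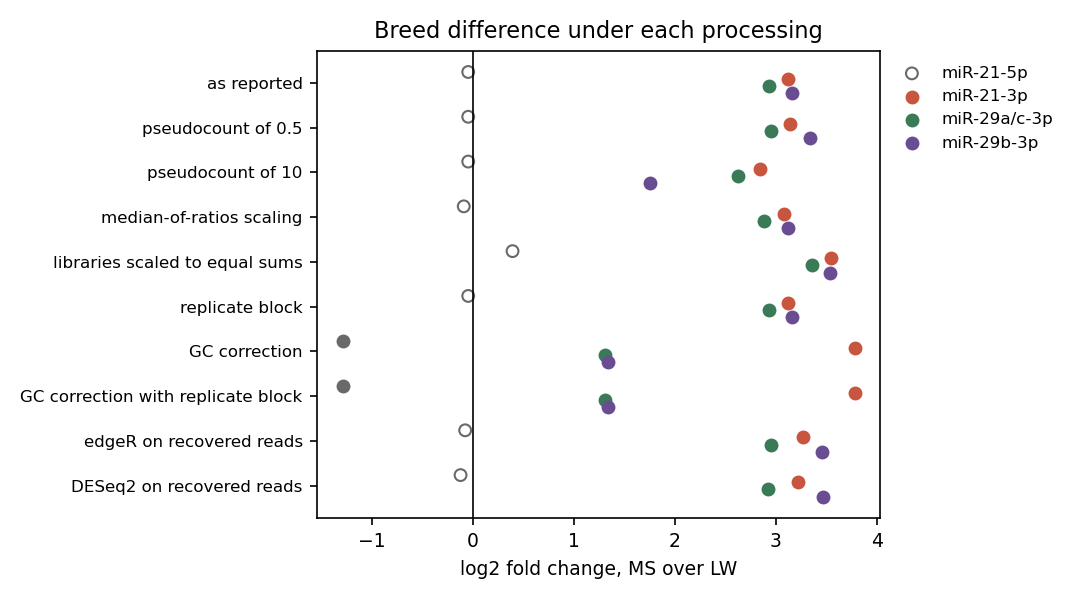
Log2 fold change of MS over LW of the 4 tested strands under 10 processing choices, with filled points for calls at an adjusted p under 0.05. MiR-21-3p and both miR-29 3p strands stay above 1.3, and miR-21-5p ranges from -1.28 after GC correction to 0.40 after scaling to equal sums.

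Other miRNAs linked to the matrix in other mammals were compared as lists. These lists overlap with the muscle-enriched rows above. Both strands of miR-208b are in the fibrosis list, and those of miR-133a and miR-133b are in the list of matrix-restraining miRNAs. All of these shared rows were called higher. Of 11 rows of miRNAs reported to promote fibrosis 9 were tested, and 4 were higher, 2 lower and 3 not called in MS, with a median log2 fold change of 0.75. Over all miRNAs tested 34.1% were higher and 28.1% lower, with a median of 0.11, and the same background holds for the next list. The largest rise was that of miR-208b-3p (5.17), encoded in a slow myosin gene, from 34.7 to 93.5 normalized reads in LW to 1208 to 3545 in MS. MiR-208b-5p, also called higher, reached the minimum for the test only in MS, so the test could not have shown it as lower. The largest fall was that of miR-199a-5p (-3.74), a strand abundant in mesenchyme, from 154410 to 171530 down to 9586 to 13421. Its partner strand miR-199a-3p (0.27) overlapped between the breeds and was not called. MiR-199b-5p (0.32) was not called either, though every MS library lay above every LW library. Of 32 rows of miRNAs reported to restrain matrix genes 29 were tested, and 15 were higher, 2 lower and 12 not called, with a median of 0.75. These ranged from miR-26a-3p (3.99), the scarce strand of miR-26a, down to miR-30c-2-3p (-1.64). MiR-26a-3p, miR-98-3p, miR-101-2-5p, miR-19b-1-5p and miR-133b-5p, all called higher, reached the minimum for the test only in MS. The test could not have shown them as lower. MiR-133a-3p, which represses connective tissue growth factor in mouse heart, was higher by 1.92 (adjusted p = 2.9e-05 from limma). The list counts scarce strands as well. Among its abundant strands miR-26a-5p (0.19), miR-30a-5p (0.03), miR-30c-5p (-0.02), miR-30d-5p (-0.27) and miR-101-3p (0.27) were not called. Others, such as miR-30b-5p (0.88), miR-30e-5p (0.92) and miR-98-5p (0.99), were called higher, and miR-24-3p (-0.70) was called lower. After the GC correction the lists had 4 higher and 3 lower with a median of -0.13, and 9 higher and 6 lower with a median of 0.12. With equal sums they had 7 and 2, and 18 and 1. All 548 miRNAs shifted with these settings too, to 169 higher and 159 lower with a median of -0.06 after the GC correction and to 232 and 118 with a median of 0.54 with equal sums.

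The miRNAs whose log2 values followed these strands most closely over the 6 libraries differed between the strands of miR-21. MiR-21-5p was closest to miR-532-5p (Pearson's r = 0.9495), miR-339-5p (0.926) and miR-30a-3p (0.8932), and 0 miRNAs reached an r of 0.95. MiR-21-3p was closest to miR-148a-5p (0.998), miR-374b-3p (0.9931) and miR-152-5p (0.9925), and 69 reached 0.95. MiR-29a/c-3p was closest to miR-219-5p (0.998), miR-187-3p (0.9969) and PN-32-3p (0.9951), and miR-29b-3p to PN-19-3p (0.9961), miR-338-3p (0.9919) and miR-130b-3p (0.9903). An r of 0.95 was reached by 50 miRNAs for miR-29a/c-3p and by 56 for miR-29b-3p. The points are 6 libraries in 2 breeds and share the scaling of each library, so these values describe a shared breed difference as much as a likeness within a breed.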

How the data were processed

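Per the study's methods, the authors prepared TruSeq small RNA libraries, cleaned reads with ACGT101-miR (version not given in the sources used here), removed other RNA classes and mapped the rest with BLAST to miRBase and Sscrofa10.2. The deposited values are a signal, namely reads of each miRNA's commonest sequence that the authors scaled by mappable reads. Of the table, 4 lines are not reported here. The authors' columns of breed means and sums, and the length, were not tested. Of the values up to 20 reads, 93.3% to 95.7% per library were whole multiples of 1 read within 0.1 read, which gave the whole reads recovered.

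The fits used limma 3.58.1 under R 4.3.3 (eBayes with a trend, Benjamini-Hochberg adjustment over 548 miRNAs), in place of the study's unadjusted test per miRNA. EdgeR 4.0.16 called 345 and DESeq2 1.42.0 called 347 on recovered reads. Python 3.11.15, numpy 2.4.6, pandas 2.3.3 and scipy 1.17.1 served the other steps. This fit was first tested on simulated data.

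The named miRNAs are the 8 rows, their seed mates, the 3 closest patterns of each tested strand, the extremes of each list and the hairpins with the largest arm shifts. MiR-133a-3p, miR-124a-3p and the list rows other than the extremes were named after their values were seen. The rows and lists were chosen with earlier results of these data known, and the 5p fits without a minimum were added after seeing the data. Alternatives were pseudocounts, scalings, filters, no trend, a replicate block, a GC correction (loess, span 0.75), both together and each library left out.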

Additional observations from a re-analysis of the deposited data

How the results depend on the processing

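MiR-21-3p, miR-29a/c-3p and miR-29b-3p were called higher in MS under each of their 17 alternatives, and the arm ratio of miR-21 under each of its 11. MiR-21-5p was uncalled at -0.04, changed sign with equal sums (0.40) and was called lower after the GC correction (-1.28), also together with the block (-1.28). Leaving out 1 library gave -0.14 to 0.10 for miR-21-5p, 2.76 to 3.66 for miR-21-3p, 2.67 to 3.14 for miR-29a/c-3p, 2.94 to 3.32 for miR-29b-3p, 2.90 to 3.56 for the arm ratio (3.16, and 5.07 after the GC correction) and -2.59 to -1.52 for miR-29b-2-5p without a minimum. The log2 ratio of the miR-29 shares (3.10) ranged from 2.66 to 3.28. That of the miR-21 shares (0.40) was 0.27 without the 10 most abundant miRNAs. Over all miRNAs 341 were called, 187 higher and 154 lower, against 122 of the 179 above 1000 normalized reads, where only miR-21-5p of these strands remains, and 232 higher and 118 lower with equal sums. Libraries of the same replicate number showed no sign of pairing (correlations of deviations 0.00469, -0.211 and 0.0965 for the same numbers, and LW replicate 1 correlated best with MS replicate 2, at 0.358). Whether they shared a batch was not tested. With the replicate block 332 were called, and miR-21-5p (-0.04), miR-21-3p (3.12), miR-29a/c-3p (2.93), miR-29b-3p (3.16) and the arm ratio (3.16) kept their side of the threshold. The cause of the changes with scaling and GC content was not tested. Depth limits miR-29b-3p in LW and all 5p strands of miR-29.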
